A study of Mus musculus with 14 samples.

Results

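The genes described here are 36 ribosome biogenesis genes of the mouse that are commonly listed as targets of the transcription factor MYC. They are given by a list of names that sets no threshold on measured values, and 35 of the 36 were listed among the 12421 genes of the count table. Utp4 was not listed under that symbol. Ribosomes are built in the nucleolus, where RNA polymerase I transcribes the ribosomal RNA precursor. Small nucleolar ribonucleoproteins modify that precursor, and separate sets of assembly factors cut and fold it into the small and the large subunit. MYC binds the DNA motif CACGTG, called an E-box, and raises transcription of many of these genes, and MYC is a common downstream effector of Notch signalling in T-cell leukaemia. The table holds transcript counts only, so neither MYC binding nor ribosome production was measured.

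RNA sequencing measured 14 libraries from 8 T-cell acute lymphoblastic leukaemias of the mouse VTL model, in which Lmo2, a transcriptional cofactor of blood progenitors, induces the disease. All tumours had arisen from thymocytes placed into irradiated C57BL/6-Ly5.1;FVB F1 mice and were then grown from thawed cells in C57BL/6-Rag1-/- recipients, which make no mature T or B cells of their own. RNA came from spleen cells sorted for both CD45.1 and CD45.2. By their labelled Lmo2 status, VTL-19 and VTL-24 were dependent. VTL-21, VTL-25 and VTL-153 were evolving, and VTL-33, VTL-44 and VTL-81 were independent. All 8 were sequenced from hosts without doxycycline (Dox). All but the dependent tumours were also sequenced from 1 host each that was fed Dox at 600 mg/kg of food. Neither the direction in which Dox acts on Lmo2 nor the promoter that drives it in the model is given by the labels. Lmo2 itself was lower with Dox in all 6 tumours, by very different amounts. The widest level was in VTL-153, at 708 CPM (counts scaled to a common library size) without and 0.405 CPM with Dox. Among the independent tumours it stood at 600 and 1.32 CPM in VTL-33. It was already low without Dox in VTL-44 (9.28 and 4.09 CPM) and VTL-81 (27.2 and 8.46 CPM). Ages of the hosts are not given in the sources used here.

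Totals ran from 18214415 to 24048281 counts per library. All 10 listed T cell markers were above 0 in every library and summed to between 3829 and 6281 CPM. VTL-25 and VTL-153 without Dox matched closely: only 3 genes exceeded 20 CPM in one of them while staying under 0.5 CPM in the partner. For the other 27 pairs of libraries without Dox that number was 21 to 130. The medians of the comparisons that include evolving tumours, and the results for Utp20 and Arl1, are therefore also given without them. VTL-21 is then the 1 evolving tumour left and is assumed to vary like the tumours of the other classes, so that these values carry no replicate check within the class. VTL-81 with Dox held 2884 CPM of 13 myeloid markers, and VTL-21 with Dox held 6407 CPM of 4 listed B cell markers. In such bulk RNA, fewer cells of a type and less RNA per cell cannot be told apart. The tumours are the replicates. For Dox, the p-values rest on the spread between tumours of the change with Dox, pooled over both classes. For the class comparisons they rest on the spread of levels between tumours.

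All 35 genes were expressed in every library and passed the filter on low counts in each comparison. Levels are CPM on library sizes scaled by the TMM method, which compares libraries for 1 gene. Per kilobase of annotated exon, Npm1 was highest with a mean of 397 CPM per kb over the 14 libraries. Ncl followed with 204 CPM per kb, and Wdr12 was lowest with 7.58 CPM per kb. The length counts every annotated exon of a gene, at 2665 bp for Npm1, 10188 bp for Ncl and 11955 bp for Wdr12. It can exceed the length of the transcript present, so this order depends on the annotation. Undivided, the mean was 2081 CPM for Ncl and 1059 CPM for Npm1. The range over the libraries differed between the genes. The highest library had 1.42 times the level of the lowest for Nob1 and Rrn3 and 3.11 times for Wdr12, with the other genes between them except Utp20, whose ratio was 9.36. The SD of log2 CPM over the libraries had a median of 0.302 over the 35 genes, against 0.283 over the 7589 genes with a mean of at least 20 CPM. Of the 35 genes, 16 lay below that second value, so the set was not narrower than other genes.

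Of these genes, 7 carry the MYC motif next to their start in RefSeq's mouse promoters (GRCm38.p6, the assembly of mm10), and their sequences are shown because MYC is the factor that the set is named for. The window held the 250 bases before and the 50 bases after the start. Of the 31 genes with a promoter in that table, 7 (22.6%) held CACGTG, which reads the same on both strands. The motif was in 8.09% of all 27025 promoters of the table and in 11.9% of the 8967 promoters of genes listed in the counts. A match describes the letters and does not show that MYC binds there, and a window without one says nothing of MYC. The capitals mark the motif, and each line reads 5′ to 3′ on the strand of the gene.
Mybbp1a, chr11:72441347-72441376, plus strand: aagtgactgtcttctgagccCACGTGtttg
Wdr43, chr17:71616220-71616249, plus strand: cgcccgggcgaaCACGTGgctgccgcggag
Utp20, chr10:88826765-88826794, minus strand: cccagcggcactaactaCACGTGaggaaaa
Pes1, chr11:3963965-3963994, plus strand: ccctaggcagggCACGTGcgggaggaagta
Tsr1, chr11:74898092-74898121, plus strand: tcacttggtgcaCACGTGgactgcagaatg
Nop2, chr6:125131758-125131882, plus strand: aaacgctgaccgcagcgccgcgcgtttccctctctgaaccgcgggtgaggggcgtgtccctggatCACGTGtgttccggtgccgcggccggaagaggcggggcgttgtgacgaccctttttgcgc
Rrn3, chr16:13780472-13780501, plus strand: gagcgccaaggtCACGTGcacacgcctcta
Rrn3, chr16:13780574-13780698, plus strand: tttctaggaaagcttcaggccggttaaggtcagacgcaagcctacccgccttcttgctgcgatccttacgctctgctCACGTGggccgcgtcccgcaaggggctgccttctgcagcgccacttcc
The motif lay after the annotated start in Mybbp1a, Wdr43, Utp20, Pes1 and Tsr1, by between 2 bases (Pes1) and 40 bases (Mybbp1a). It lay 60 bases before the start in Nop2. Rrn3 had it 48 and 215 bases before the start, and was the 1 gene of the set with a pair of matches.

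The levels of these genes moved together over the libraries, as the heat map of all 35 genes shows. A gene's log2 CPM correlated with the mean of the other 34 at a median Pearson r of 0.784 over the 14 libraries, and 26 of the 35 reached at least 0.7. These libraries share tumours and scaling, and the values describe them only. Neither these values nor the counts below of genes above or below their mean were computed for other genes. They do not show that these genes moved together more than others. Wdr43, a small-subunit processome protein, followed the rest most closely (r = 0.907), and Rrn3, which brings RNA polymerase I to its promoter, followed it least (r = 0.228), next to Utp20 (0.279). As a summary for each library, every gene was set relative to its own mean over the 14 libraries and the median was taken. This median was highest in VTL-81 without Dox at 0.37 on the log2 scale, where 34 of the 35 genes stood above their mean. It was lowest in VTL-44 with Dox at −0.33, in VTL-81 with Dox at −0.30 and in VTL-44 without Dox at −0.29, where 33, 31 and 33 genes stood below their mean.

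**Figure D1:**
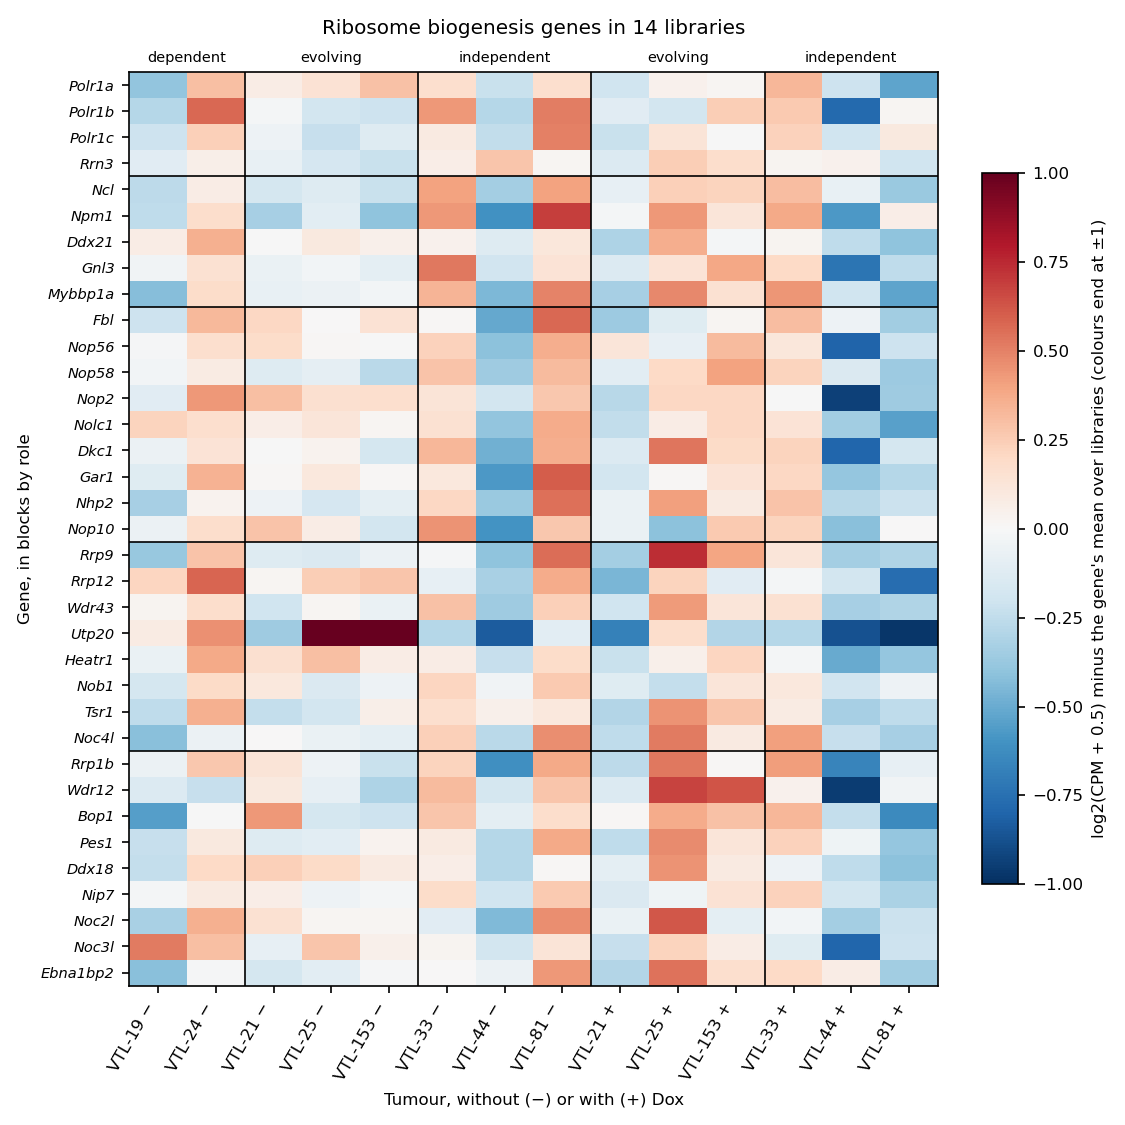
Level of each of the 35 genes (rows, in blocks by role) in each of the 14 libraries (columns), as log2(CPM + 0.5) minus the gene's mean over libraries; red is above and blue below the mean, and colours end at 1 log2 unit. Whole columns share a colour: VTL-81 without Dox is mostly red, with 34 genes above their mean, while both VTL-44 libraries and VTL-81 with Dox are mostly blue, and Utp20 is off the scale in VTL-25 and VTL-153 without Dox.

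By class, the median was 0.03 ± 0.22 in the dependent tumours (SD, n = 2), −0.03 ± 0.02 in the evolving tumours without Dox (n = 3) and 0.06 ± 0.23 with Dox (n = 3). It was 0.08 ± 0.33 in the independent tumours without Dox (n = 3) and −0.14 ± 0.30 with Dox (n = 3). The evolving tumours without Dox lay closest together, between −0.05 and −0.001. The ranges of all other groups contained that range, so that no class stood apart by this measure.

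Ncl, which encodes nucleolin, a protein that binds ribosomal RNA precursors (chromosome 1, 86344719 to 86359400 on mm10), stood at 1704 and 2151 CPM in the dependent tumours VTL-19 and VTL-24. In the evolving tumours it was at 1808 without and 1938 CPM with Dox in VTL-21, at 1873 and 2412 CPM in VTL-25 and at 1754 and 2392 CPM in VTL-153. In the independent tumours it was at 2711 and 2536 CPM in VTL-33, at 1616 and 1948 CPM in VTL-44 and at 2709 and 1585 CPM in VTL-81. Ncl was thus higher with Dox in each evolving tumour, by as little as 0.10 on the log2 scale in VTL-21, and its highest and lowest levels both lay in independent tumours.

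Npm1, which encodes the nucleolar chaperone nucleophosmin (chromosome 11, 33152287 to 33163206), stood at 855 and 1151 CPM in VTL-19 and VTL-24. Without and with Dox it was at 811 and 1007 CPM in VTL-21, at 950.3 and 1379 CPM in VTL-25 and at 774 and 1114 CPM in VTL-153. In the independent class it had 1379 and 1332 CPM (VTL-33), 669.6 and 685 CPM (VTL-44) and 1646 and 1071 CPM (VTL-81). In the evolving tumours the 3 libraries with Dox lay above the 3 without, and in the independent tumours the groups overlapped. Npm1 has near-identical pseudogene copies, and how the counting treated reads that fit several places is not given in the sources used here, so its level is uncertain.

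Fbl, which encodes fibrillarin, the methyltransferase of box C/D ribonucleoproteins (chromosome 7, 28169710 to 28179269), stood at 115 and 166.5 CPM in VTL-19 and VTL-24. Without and with Dox it was at 154 and 103 CPM in VTL-21, at 133.5 and 122 CPM in VTL-25 and at 147 and 135 CPM in VTL-153. The independent tumours had 134 and 165 CPM (VTL-33), 93.3 and 129 CPM (VTL-44) and 198 and 104 CPM (VTL-81). Fbl was lower with Dox in each evolving tumour, the opposite of its partner in the same particle, Nop58, which was higher in each.

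With Dox in the evolving tumours, none of the 35 genes passed edgeR's quasi-likelihood test at an adjusted p under 0.05, where 2.13% of all 12360 tested genes passed. Before adjustment 2 of the 35 had p under 0.05 (Npm1 higher and Utp20 lower), against 16.7% of all genes. DESeq2 called 1 of the 35, Utp20, against 10.6% of all genes. By limma voom none of the 35 passed, against 3.45% of all genes. The estimates were higher with Dox for 21 genes (49.7% of all genes) and lower for 14, with a median log2 change of 0.12, against −0.002 over all genes. For Npm1 the log2 change was 0.46 (SE 0.17, n = 3 tumours, edgeR adjusted p = 0.236).

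The 3 evolving tumours did not move alike. In VTL-25 the genes had a median change of 0.28, with 24 higher (50.5% of all genes), and in VTL-153 one of 0.19, with 28 higher (47.8% of all genes). In VTL-21 the median was −0.21, with 32 of the 35 lower, against 49.7% of all genes. The summed B cell markers in that tumour were at 254.8 and 6407 CPM in the libraries without and with Dox, against 141 and 688 CPM in VTL-25 and 233 and 197 CPM in VTL-153. The sum over the myeloid list was higher with Dox in VTL-21 (206 against 20 CPM). It was lower in both VTL-25 (26.5 against 281 CPM) and VTL-153 (20.2 against 249 CPM). In each evolving tumour the myeloid sum thus moved opposite to the median of the 35 genes. The B cell sum did so in VTL-21 and VTL-153 but not in VTL-25. The part of either list in the result was not tested. Ncl, Npm1 and Nop58, a core protein of box C/D ribonucleoproteins, were higher in all 3 tumours, and 17.3% of all genes were. Fbl, Utp20, Rrp12 (a small-subunit export factor) and Polr1a (the largest subunit of RNA polymerase I) were lower in all 3, and 17.6% of all genes were. Without VTL-25 the median log2 change was −0.02, and without both VTL-25 and VTL-153 it was −0.20, with 30 genes lower.

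By role, the 5 nucleolar regulators had a median log2 change of 0.19 with Dox in the evolving tumours, with 4 estimates higher. The 4 genes of RNA polymerase I transcription had 0.11 (3 higher), and the 9 large-subunit factors 0.14 (6 higher). Wdr12, which forms the PeBoW complex with Pes1 and Bop1 in large-subunit assembly, had the highest estimate, 0.49 (SE 0.24, edgeR adjusted p = 0.382). It stood at 93.7 without and 79.5 CPM with Dox in VTL-21, at 82.5 and 140 CPM in VTL-25 and at 70.5 and 135 CPM in VTL-153. Of the 9 genes of rRNA modification 4 were higher, with a median of −0.05, and of the 8 small-subunit factors 4 were higher, with a median of 0.06. No gene of any role passed the test.

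**Figure D2:**
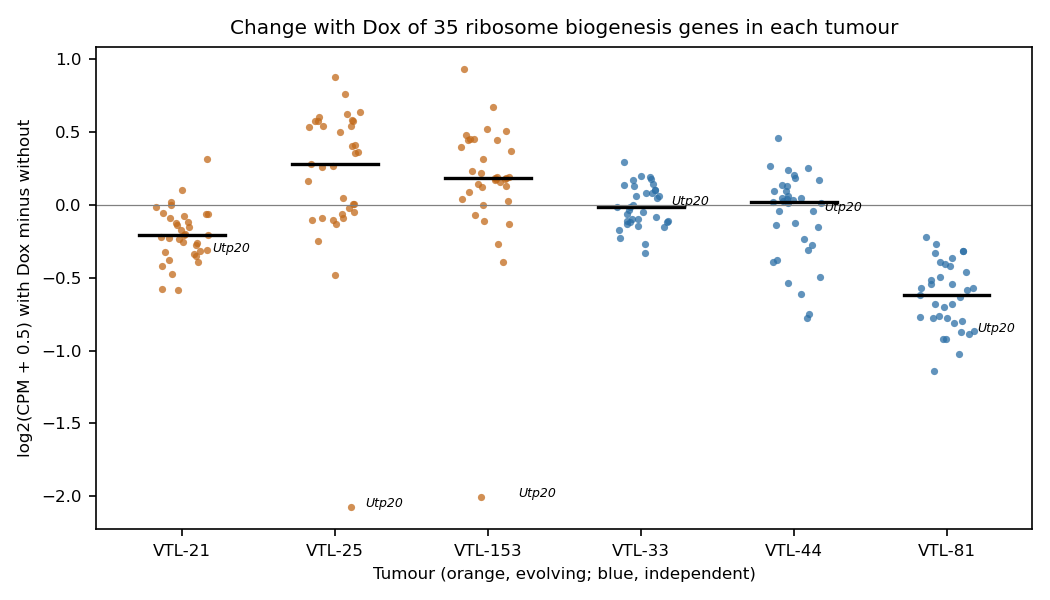
Change with Dox of each of the 35 genes (points) in each of the 6 tumours with a pair of libraries, as log2(CPM + 0.5) with minus without Dox, with the median as a black bar; evolving tumours are orange and independent tumours blue. All 35 points lie below 0 in VTL-81 (median −0.62), 32 do in VTL-21, and Utp20 lies at about −2 in VTL-25 and VTL-153, far below the other genes.

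With Dox in the independent tumours, all 35 genes had lower estimates, against 48.4% of all tested genes, and 1 tumour carried most of this. The median log2 change was −0.21, against 0.01 over all genes, and the estimates ran from −0.51 (Nop2) to −0.05 (Fbl). None of the 35 passed edgeR's quasi-likelihood test, and 0.0% of all 12360 genes did. Before adjustment 5 genes had p under 0.05, all lower (Gnl3, Nop2, Polr1b, Noc3l and Nop56), against 0.372% of all genes that were lower at that mark. Neither DESeq2 nor limma voom called any gene here.

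In VTL-81 all 35 genes were lower with Dox, with a median change of −0.62 and a range from −1.14 (Rrp12) to −0.22 (Rrn3), where 44.4% of all genes were lower. The summed level of the 35 genes went from 10510 to 6558 CPM. VTL-33 and VTL-44 had medians of −0.02 and 0.02, with 19 and 15 of the 35 genes lower, against 48.8% and 53.6% of all genes. Without VTL-81 the median of the fit was −0.01, with 18 genes lower and 17 higher. In VTL-81 the summed myeloid markers went from 248 to 2884 CPM, while T cell markers stood at 6202 and 6281 CPM. Over the groups the myeloid sum ran from 35.7 to 118 CPM in dependent tumours, from 20 to 281 CPM in evolving tumours without and from 20.2 to 206 CPM with Dox. It ran from 81.2 to 1992 CPM in independent tumours without Dox and from 210.1 to 2884 CPM with Dox, and all 13 markers were above 0 in both VTL-81 libraries. The mitochondrial share of counts in VTL-81 went from 1.62% (95% Wilson interval 1.62 to 1.63, counting error only) to 5.73% (5.72 to 5.74). It also rose in VTL-33, from 4.25% to 6.01%, and fell in VTL-44, from 4.92% to 2.31%. The part of these values in the result was not tested.

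Other gene lists were lower with Dox in VTL-81 as well. Of 94 other ribosome biogenesis genes, 87 were lower with Dox in that tumour, with a median change of −0.38, where 44.4% of all genes were lower. Of 30 MYC targets outside the nucleolus, 28 were lower, with a median of −0.54, and 20 proliferation genes had a median of −0.15, with 13 lower.

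Gnl3, which encodes the nucleolar GTPase nucleostemin (chromosome 14, 31012433 to 31019152), was lower with Dox in each independent tumour. It stood at 212 without and 169 CPM with Dox in VTL-33, at 129 and 88.8 CPM in VTL-44 and at 162 and 124 CPM in VTL-81, and the groups overlapped. The log2 change was −0.42 (SE 0.14, n = 3 tumours, edgeR adjusted p = 1). In the evolving tumours Gnl3 was at 141 and 134 CPM (VTL-21), 145 and 162 CPM (VTL-25) and 138 and 193 CPM (VTL-153), and the dependent tumours VTL-19 and VTL-24 had 144 and 164 CPM.

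Nop2, an rRNA cytosine methyltransferase whose promoter holds the motif (chromosome 6, 125131909 to 125144753), had the lowest estimate, −0.51 (SE 0.19, edgeR adjusted p = 1). It stood at 124.5 and 114 CPM in VTL-33, at 100.4 and 59.5 CPM in VTL-44 and at 138 and 88.8 CPM in VTL-81, lower in each. It was also lower with Dox in VTL-21, at 94 against 141 CPM, and nearly level in VTL-25 (127 and 132 CPM) and VTL-153 (128 and 132 CPM). VTL-19 and VTL-24 had 105 and 154 CPM, of which the latter was the highest of all libraries.

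In all, 12 of the 35 genes were lower with Dox in all 3 independent tumours, against 8.31% of all tested genes. None was higher in all 3, against 8.71%. They were Rrn3 and Polr1b of RNA polymerase I transcription, the nucleolar regulators Gnl3 and Ddx21 (an RNA helicase), and Nop56, Nop2 and Dkc1 of rRNA modification. The others were Heatr1, Nob1 and Tsr1 of the small and Wdr12 and Noc3l of the large subunit. Since every gene was lower in VTL-81, these are the genes that were lower in both VTL-33 and VTL-44. The 8.31% also requires a fall in VTL-81, where 44.4% of all genes fell, so it is not a matching share. How many of all genes were lower in both VTL-33 and VTL-44 was not counted. Taken singly, 19 and 15 of the 35 were lower there, against 48.8% and 53.6% of all genes. Dkc1, the pseudouridine synthase of box H/ACA ribonucleoproteins, had changes of −0.11, −0.31 and −0.54 in VTL-33, VTL-44 and VTL-81. Its partners in that particle, Gar1 and Nhp2, were higher with Dox in VTL-33 and VTL-44 and lower in VTL-81, and Nop10 was lower in VTL-33 and VTL-81.

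**Figure D3:**
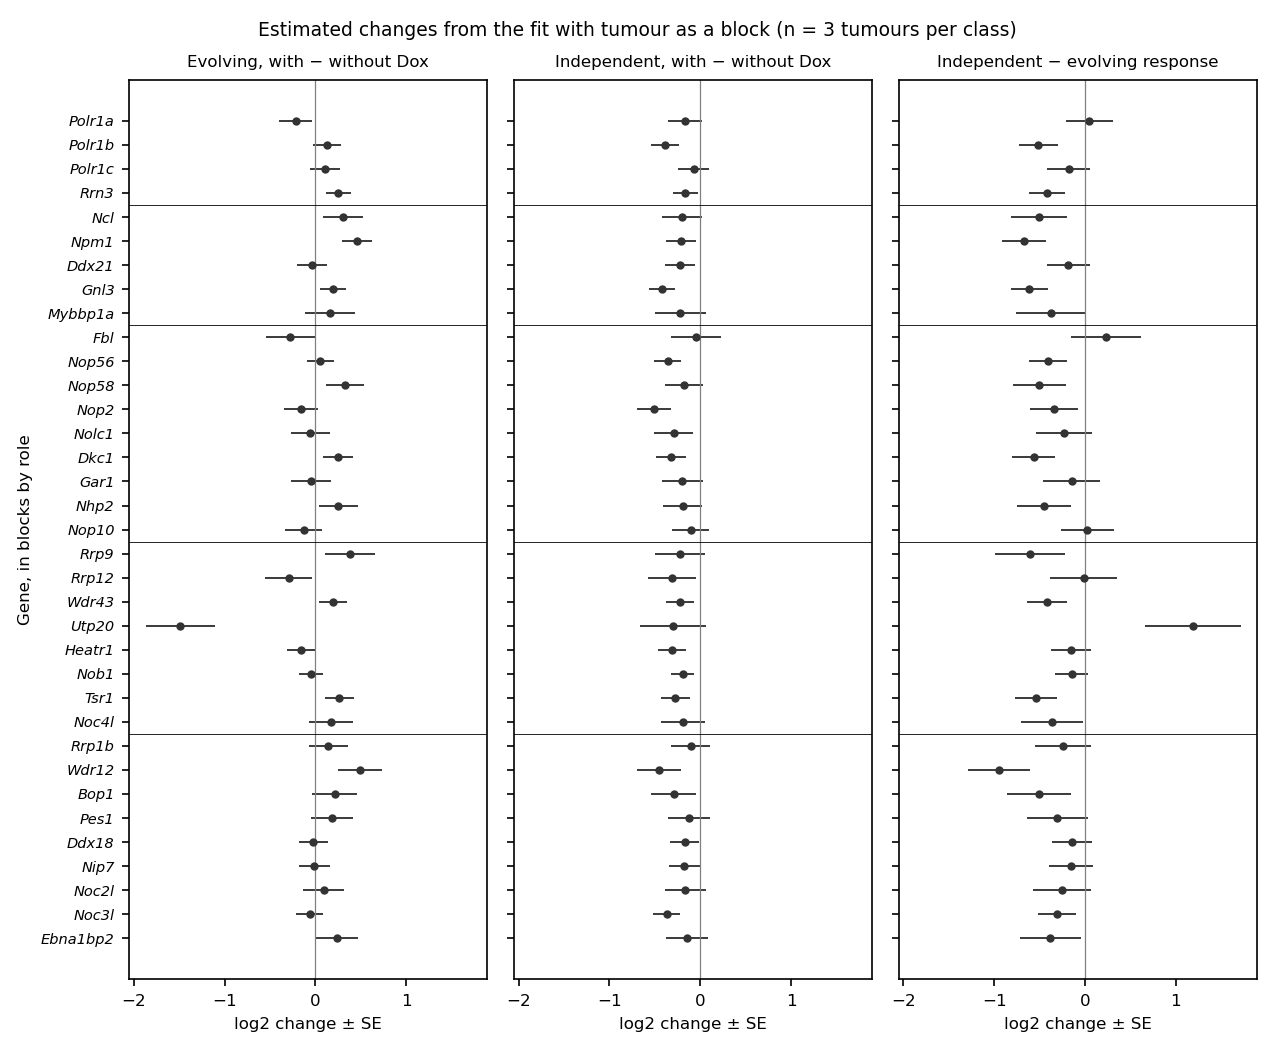
Log2 change with Dox of each of the 35 genes (rows, in blocks by role) from edgeR's fit with tumour as a block, with its SE (bars), in evolving tumours (left), in independent tumours (middle) and as the difference between them (right), on 1 common axis. All 35 estimates lie below 0 in the middle panel, with a median of −0.21, and Utp20 stands apart on the left at −1.49.

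The response to Dox was compared between the classes by the difference of the estimates, independent minus evolving. By edgeR's quasi-likelihood test no gene of the 35 passed for that difference, where 0.121% of all genes did. Neither DESeq2 nor limma voom called any of the 35, against 4.44% and 0.558% of all genes. The difference was below 0 for 31 of the 35 (49.6% of all genes), with a median of −0.34 (0.003 over all genes). Before adjustment 5 genes had p under 0.05, all lower, against 4.79% of all genes. These were Gnl3, Npm1, Wdr12, Dkc1 and Tsr1, a factor of late small-subunit maturation. The difference was −0.61 (SE 0.20, n = 3 tumours per class, edgeR adjusted p = 0.369) for Gnl3, −0.67 (SE 0.24, adjusted p = 0.413) for Npm1 and −0.95 (SE 0.34, adjusted p = 0.424) for Wdr12.

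For 7 genes the changes of the 3 independent tumours all lay below those of the 3 evolving tumours, against 7.21% of all genes. For none did they all lie above (7.85% of all genes). The 7 genes were Npm1, Nop56, Wdr12, Polr1b, Gnl3, Tsr1 and Noc3l. Wdr12, for example, went from 109 to 90.2 CPM in VTL-33, from 77.5 to 45.1 CPM in VTL-44 and from 106 to 85.2 CPM in VTL-81. In the evolving tumours its changes were −0.24, 0.76 and 0.93. The median difference was −0.07 without VTL-81 and 0.003 without VTL-25 and VTL-153.

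Without Dox, no class comparison called any of the 35 genes by edgeR. Between evolving and dependent tumours the median log2 difference was −0.04, with 21 genes lower (48.0% of all genes), and it was 0.14 without VTL-24 and −0.21 without VTL-19, the only other dependent tumour. Without VTL-25 and VTL-153 it was −0.05. None of the 35 passed edgeR's test, where 0.0% of the 12348 tested genes passed. None had an unadjusted p under 0.05, against 3.39% of all genes. DESeq2 and limma voom called none of the 35 either, against 0.518% and 0.0% of all genes. Nop58, Nolc1 (a chaperone of small nucleolar ribonucleoproteins), Wdr43 and Noc3l (a large-subunit assembly factor) were lower in every evolving than in every dependent tumour, against 9.55% of all genes, and none was higher in every one (9.94% of all genes).

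Noc3l (chromosome 19, 38788128 to 38819237) stood at 57.6 and 49.5 CPM in the dependent tumours VTL-19 and VTL-24. It was at 37.8, 48.7 and 41.4 CPM without Dox and at 33.9, 46.7 and 42.2 CPM with Dox in VTL-21, VTL-25 and VTL-153. In VTL-33, VTL-44 and VTL-81 it was at 40.8, 35.2 and 43.7 CPM without Dox and at 36.7, 22.9 and 34.7 CPM with Dox. All 12 libraries of evolving and independent tumours thus lay below both dependent ones, the nearest at 48.7 against 49.5 CPM. How many of all genes showed that order was not counted. Without Dox, 9.55% of all genes were lower in every evolving than in every dependent tumour, and 13.2% in every independent tumour. The log2 difference was −0.33 (SE 0.17, edgeR adjusted p = 1) for evolving and −0.42 (SE 0.17, edgeR adjusted p = 0.362) for independent tumours against the same 2 dependent tumours.

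Between independent and dependent tumours the median log2 difference was 0.06, with 23 genes higher (53.1% of all genes), and it was −0.06 without VTL-81, −0.09 without VTL-19 and 0.25 without VTL-24, with 30 genes higher in the last. None of the 35 passed edgeR's test, where 0.0972% of all genes did, and 1 (Noc3l) had an unadjusted p under 0.05 (13.2% of all genes). DESeq2 and limma voom called none of the 35, against 6.41% and 0% of all genes. The groups did not overlap for Utp20 and Noc3l, both lower, against 13.2% of all genes, and for no higher gene, against 14.4%. Noc4l, a small-subunit assembly factor, had the highest estimate, 0.41 (SE 0.23, edgeR adjusted p = 0.49). It stood at 47.9 and 61.6 CPM in VTL-19 and VTL-24 and at 75.8, 53.1 and 89.1 CPM in VTL-33, VTL-44 and VTL-81 without Dox, so the groups overlapped. In VTL-21, VTL-25 and VTL-153 it was at 64.5, 61.5 and 60.1 CPM without and at 53.8, 92.4 and 68.6 CPM with Dox, and with Dox it was at 85.7, 54.6 and 51.1 CPM in the independent tumours.

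Between independent and evolving tumours without Dox the median was 0.15, with 25 genes higher (52.8% of all genes), and it was 0.01 without VTL-81, 0.29 without VTL-44 and 0.07 without VTL-25 and VTL-153. None of the 35 passed edgeR's test, where 0.259% of all genes did. DESeq2 called 1, Utp20, against 8.65% of all genes, and limma voom called none, against 0.0567%. Utp20 was also the 1 gene of the set with an unadjusted p under 0.05 by edgeR (16.4% of all genes). Rrn3 (chromosome 16, 13780708 to 13814839) was higher in every independent than in every evolving tumour, against 11.4% of all genes. It stood at 96.1, 111.5 and 93.2 CPM in VTL-33, VTL-44 and VTL-81 and at 87.3, 81.9 and 78.6 CPM in VTL-21, VTL-25 and VTL-153, with a log2 difference of 0.28 (SE 0.12, edgeR adjusted p = 0.305). With Dox the same tumours had 93.7, 94.5 and 79.9 CPM and 83.6, 109 and 103.8 CPM, which overlapped, and VTL-19 and VTL-24 had 84.7 and 95.8 CPM. Ddx18, an RNA helicase of the large subunit, was lower in every independent tumour, at 87.9, 68.9 and 84.9 CPM against 99.4, 96.0 and 89.8 CPM. For such lower groups the share among all genes was 12.1%.

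Between independent and evolving tumours with Dox the median was −0.21, with 32 genes lower, against 51.0% of all genes. By edgeR's test no gene of the 35 passed, and 0.0% of the 12093 tested genes passed. None had an unadjusted p under 0.05, against 4.74% of all genes. DESeq2 and limma voom called none of the 35 either, against 0.777% and 0.00827% of all genes. No gene of the 35 had groups that did not overlap, against 4.78% of all genes higher and 4.86% lower. Wdr12 had the lowest estimate, −0.70 (SE 0.34, edgeR adjusted p = 0.974). It stood at 90.2, 45.1 and 85.2 CPM in the independent and at 79.5, 140 and 135 CPM in the evolving tumours, and at 79.7 and 74.4 CPM in the dependent tumours. Ddx18 had −0.41 (SE 0.21, edgeR adjusted p = 0.974), with 81.2, 70.3 and 63.3 CPM against 78.7, 115 and 89.6 CPM, and the dependent tumours had 71.0 and 96.5 CPM. Without VTL-25 and VTL-153 the median was 0.07.

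Myc itself (67.95 CPM per kb) ran from 30.5 to 300.2 CPM, a ratio of 9.83. The ratio was 9.36 for Utp20 and at most 3.11 for the other genes of the set. It stood at 201 and 281 CPM in VTL-19 and VTL-24, and at 173, 103 and 138 CPM without and 168, 201 and 144 CPM with Dox in VTL-21, VTL-25 and VTL-153. VTL-33, VTL-44 and VTL-81 had 300.2, 97.95 and 239 CPM without and 289.8, 30.5 and 219 CPM with Dox. The evolving tumours without Dox were all below the dependent tumours. The log2 change with Dox was 0.32 (SE 0.36, edgeR adjusted p = 0.74) in evolving and −0.60 (SE 0.36, edgeR adjusted p = 1) in independent tumours, and their difference was −0.93 (SE 0.51, edgeR adjusted p = 0.679). Without VTL-44 the change in independent tumours was −0.09 and the difference −0.41, and with no term for tumour they were −0.24 and −0.55. Mycn and Mycl, the other genes of the family, did not exceed 4.15 and 3.3 CPM, and Max, which encodes the partner protein of MYC, stood between 94.5 and 155 CPM.

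The changes with Dox of Myc and of the 35 genes often differed in size. Myc changed little on the log2 scale in VTL-21 (−0.04), VTL-153 (0.06) and VTL-33 (−0.05). There the 35 genes had medians of −0.21, 0.19 and −0.02. In VTL-25 Myc was higher with Dox by 0.96 on the log2 scale, and the 35 genes had a median change of 0.28. In VTL-44 Myc was lower by 1.67, to the lowest level of all libraries, and the median of the 35 genes was 0.02. Genes that were lower there by more than 0.5 were Wdr12 (−0.78), Nop2 (−0.75), Noc3l (−0.61) and Gnl3 (−0.54), while Fbl was the highest (0.46). In VTL-81 Myc changed by −0.13 and the 35 genes by a median of −0.62. Both VTL-44 libraries were low for Myc and for the 35 genes alike, and held 1992 CPM of myeloid markers without and 1255 CPM with Dox, whose part was not tested.

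**Figure D4:**
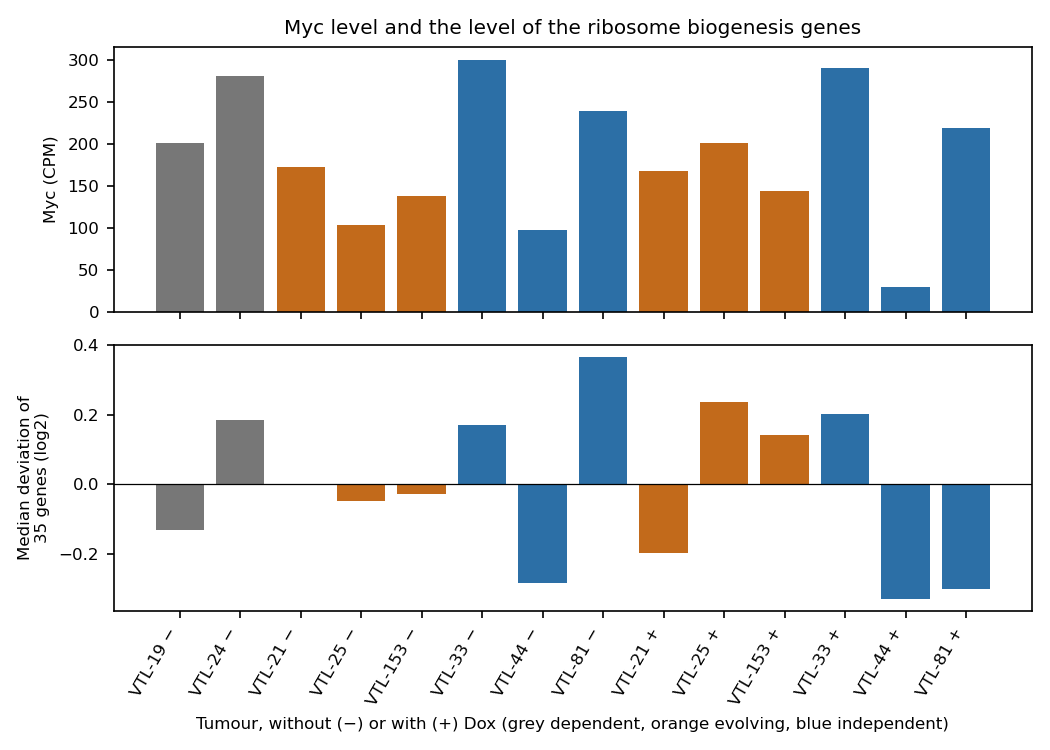
Myc level in CPM (upper panel) and the median deviation of the 35 genes from their own means on the log2 scale (lower panel) in each of the 14 libraries, 1 bar per library, grey for dependent, orange for evolving and blue for independent tumours. Both are low in the VTL-44 libraries, while VTL-81 keeps a Myc level of 239 and 219 CPM as the 35 genes go from the highest median (0.37) to one of −0.30.

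Utp20, a large scaffold protein of the small-subunit processome, was the 1 gene that left the common range (chromosome 10, 88746607 to 88826804, minus strand), and its promoter holds the motif. It stood at 760 and 524 CPM in VTL-25 and VTL-153 without Dox. The third evolving tumour, VTL-21, had 124.9 CPM, and the dependent tumours VTL-19 and VTL-24 had 169 and 219 CPM. With Dox, VTL-21, VTL-25 and VTL-153 had 99.7, 180 and 130.3 CPM. The independent tumours VTL-33, VTL-44 and VTL-81 had 130.5, 89.4 and 149 CPM without Dox and 130.7, 87.0 and 81.2 CPM with it. The 2 high libraries were those that matched closely over all genes, and the remaining 12 lay between 81.2 and 219 CPM.

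The log2 change of Utp20 with Dox in the evolving tumours was −1.49 (SE 0.38, n = 3 tumours, edgeR adjusted p = 0.119), lower in all 3 tumours. It passed by DESeq2 (adjusted p = 0.000366), which called 10.6% of all genes there. With VTL-21 left out it passed by edgeR (−2.07, adjusted p = 0.0235). That fit leaves VTL-25 and VTL-153, whose libraries without Dox matched closely. Whether these are independent replicates cannot be told from the labels. Without VTL-25 and VTL-153, which leaves VTL-21 alone, the change of Utp20 was −0.31. Over all alternatives the adjusted p ran up to 0.915. The difference between independent and evolving tumours without Dox was −1.93 (SE 0.59, edgeR adjusted p = 0.184), with an adjusted p of 0.0062 by DESeq2 and of up to 0.997 over the alternatives. It was −0.03 without VTL-25 and VTL-153. Against dependent tumours the evolving ones had 1.28 (SE 0.66, edgeR adjusted p = 1), which was −0.63 without VTL-25 and VTL-153.

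Arl1, which encodes a small GTPase of the Golgi, lies next to Utp20 and was named after its values were seen. It stood at 151 and 138 CPM in VTL-19 and VTL-24, at 105, 145 and 106 CPM in VTL-21, VTL-25 and VTL-153 without Dox and at 57.3, 57.2 and 53.5 CPM with Dox. All 6 independent libraries lay between 52.9 and 79.1 CPM, so that the dependent and evolving libraries without Dox stood above all others. How many of all genes showed this order was not counted. The fall with Dox in the evolving tumours passed edgeR's test, with a log2 change of −1.06 (SE 0.18, adjusted p = 0.0383). It was −0.86 without VTL-25 and VTL-153 (adjusted p = 0.478), and with 1 tumour left out it passed only without VTL-81, with an adjusted p of 0.0515 to 0.176 without any of the other 5. Over all alternatives the change stayed between −1.18 and −0.86. Its pattern differed from that of Utp20 in VTL-21 and in the dependent tumours, where Utp20 was not at its high level.

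**Figure D5:**
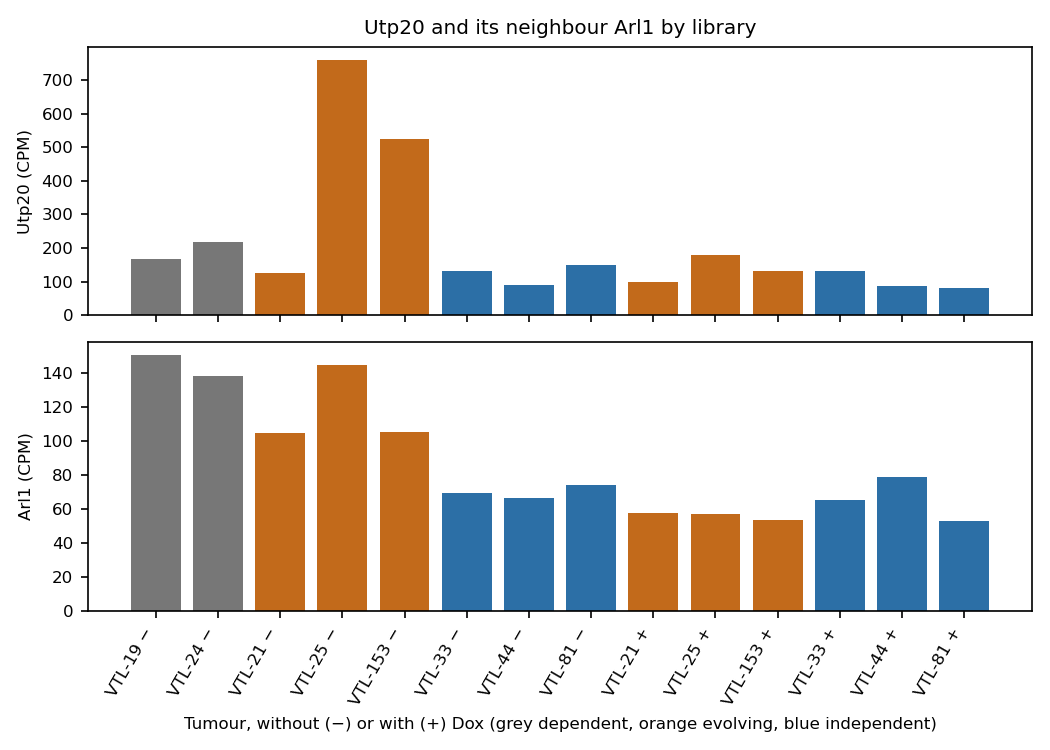
Level in CPM of Utp20 (upper panel) and of its neighbour Arl1 (lower panel) in each of the 14 libraries, 1 bar per library, grey for dependent, orange for evolving and blue for independent tumours. Utp20 is high in 2 libraries only (760 and 524 CPM), and Arl1 is above 100 CPM in all 5 dependent and evolving libraries without Dox and below 80 CPM in the other 9.

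Other genes of the pathway were counted over a list of 94 ribosome biogenesis genes, of which none passed edgeR's test in any of the 7 comparisons. Of all tested genes, between 0.0% and 2.13% passed. With Dox in the evolving tumours 67 were higher (median 0.09), against 49.7% of all genes. In the independent tumours 77 were lower (median −0.14), against 48.4% of all genes. The difference between these responses was lower for 77 (median −0.27), against 49.6% of all genes. Without Dox, 54 were lower in evolving than in dependent tumours (median −0.03), against 48.0% of all genes. In independent tumours 60 were higher than in dependent tumours (median 0.05), against 53.1% of all genes. There 66 were higher than in evolving tumours (median 0.08), against 52.8% of all genes. With Dox 80 were lower in independent than in evolving tumours (median −0.16), against 51.0% of all genes. The promoters of these genes held CACGTG in 14 of 75 (18.7%), against 8.09% of all promoters and 11.9% of those of genes listed in the counts. The 30 MYC targets outside the nucleolus had medians of 0.10 with Dox in the evolving and −0.13 in the independent tumours, with none past the test. Over all genes these medians were −0.002 and 0.01.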

How the data were processed

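Alignment to mm10 used STAR 2.5.2b and gene assignment used featureCounts, per the submitters' processing notes. The annotation and the strand setting are not given in the sources used here. Per the labels' protocols, libraries came from RNA with an integrity number above 8.0 and the NEBNext Ultra II kit. The deposited values are raw counts per gene with no normalisation by the authors, in 1 column per library. A further 42 columns of per-sample values were not used. Positions and exon lengths come from GENCODE M21, which held 12379 of the 12421 gene identifiers, and promoters from RefSeq (GRCm38.p6).

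The counts entered edgeR 4.0.16 (R 4.3.3), with TMM factors, its low-count filter (minimum count 10), robust quasi-likelihood tests and Benjamini-Hochberg adjustment across every tested gene (threshold 0.05). The SE is the size of the log2 change divided by the square root of F. Dox was tested in 12 libraries with a term for each tumour and 1 Dox term per class. Classes were compared in the 8 libraries without Dox or the 6 with it. Changes within 1 tumour are differences of log2(CPM + 0.5). Pairs come from the tumour number in the titles. As a check of the pairing, partners' deviations from group means correlated across 12196 genes at 0.701 (VTL-33), 0.645 (VTL-44), 0.517 (VTL-81), 0.197 (VTL-21), 0.172 (VTL-153) and 0.0309 (VTL-25). Scripts were tested on simulated data.

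Values in every library are given for Ncl, Npm1 and Fbl, for any of the 35 genes that passed a test, and otherwise for the 2 of smallest p in a comparison. Promoters are shown for the genes whose window holds CACGTG. The 35 genes and all lists were chosen with earlier results of these data known. Alternatives were other scaling factors (RLE, upper quartile), DESeq2 1.42.0, voom in limma 3.58.1, other filters (none, or a minimum count of 50), a test that is not robust, dropping the replicate block, and leaving out each tumour. Leaving out VTL-25 and VTL-153 together, and all alternatives for Arl1, were added after seeing the data.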

Additional observations from a re-analysis of the deposited data

How the results depend on the processing

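None of the 35 genes passed in any of the 7 comparisons under the alternatives run, with these exceptions. DESeq2 called 1 gene, Utp20, with Dox in the evolving tumours and 1, Utp20 again, between independent and evolving tumours without Dox. Of all genes it called 10.6% and 8.65% in these comparisons. With each tumour left out in turn the count with Dox in the evolving tumours ran from 0 to 1, with Utp20 called without VTL-21. That fit leaves the closely matched VTL-25 and VTL-153 as the evolving tumours. Leave-one-out medians of the difference between evolving and dependent tumours ran from −0.21 to 0.14. They ran from −0.02 to 0.22 for Dox in evolving, from −0.35 to −0.01 for Dox in independent tumours and from −0.50 to −0.07 for their difference. Between independent and dependent tumours they ran from −0.09 to 0.25, and between independent and evolving tumours from 0.01 to 0.29 without and from −0.45 to −0.13 with Dox. Where 1 tumour of a class is left, it is assumed to vary like the others.

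With no replicate block, the medians were 0.13 and −0.22 for Dox in evolving and independent tumours and −0.34 for their difference, 0 of the 35 genes were called in each, and of all genes 73, 0 and 1 were. Dropping the block for tumour changed no other call among these genes.

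Without VTL-25 and VTL-153, an alternative chosen after seeing the data that leaves 1 evolving tumour, the median was −0.20 for Dox in the evolving tumours, 0.0033 for the difference of the responses and 0.068 between independent and evolving tumours with Dox. Utp20 then had −0.63 between evolving and dependent tumours, and Myc −0.028 with Dox in the evolving tumours. The sign of Myc also turned between independent and evolving tumours with Dox, from 0.06 to −0.45 by limma voom, −0.02 without VTL-153, −0.49 without VTL-33 and −0.09 without VTL-81. Between independent and dependent tumours it turned from −0.18 to 0.08 without VTL-24 and 0.16 without VTL-44. Over all tumours left out in turn, Myc ran from −0.49 to 0.59 in the former and from −0.52 to 0.16 in the latter comparison. The cause was not tested.

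The limits are the 3 tumours per class, or 2 for the dependent class, and a spread shared between classes whose partners matched to different degrees. All 35 genes had a mean level of at least 20 CPM.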

Other observations

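Cirh1a, an older symbol of Utp4, was listed in the table and was counted among the 94 other ribosome biogenesis genes. It encodes a small-subunit processome protein and stood between 61.3 CPM in VTL-81 with Dox and 93.3 CPM in VTL-33 with Dox. In VTL-81 it went from 91.9 to 61.3 CPM with Dox, the lowest and among the highest values of the 14 libraries.

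Gnptab, another gene near Utp20, stood at 96.2 and 85.2 CPM in VTL-25 and VTL-153 without Dox and at 105.5 and 98.99 CPM with it, so that it did not share the high level of Utp20 in those libraries. It was named after its values were seen.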
